A study of Mus musculus with 4 samples.

Results

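Expression of 43 genes of DNA replication and S phase was examined in the immune cells of melanoma tumours that had been treated in different ways. The members were Orc1, Cdc6, Cdt1, Mcm2, Mcm3, Mcm4, Mcm5, Mcm6 and Mcm7 (origin licensing and the MCM helicase), Mcm10, Cdc45, Gins1 and Gins2 (helicase activation), Pola1, Pola2, Prim1, Prim2, Pold1 and Pole (polymerases and primase), Pcna and Rfc1 to Rfc5 (sliding clamp and clamp loader), Rpa1 and Rpa2 (single-strand binding), Fen1 and Lig1 (joining of Okazaki fragments), Tyms, Rrm1, Rrm2 and Tk1 (deoxynucleotide supply), Ung, Exo1, Clspn and Dtl (repair, checkpoint and licensing control), Chaf1a, Chaf1b and Slbp (chromatin assembly and histone supply) and E2f1, Ccne1 and Ccne2 (G1/S control). They were taken by symbol from a list of known replication genes, and all 43 were among the 12584 genes of the deposited table. Their unique molecular identifiers (UMIs, each standing for 1 counted probe pair) were summed by cell class and by library, with the class TAM_cycling kept apart.

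The data were single-cell RNA profiles of sorted live CD45+ cells from YUMM1.7OVA RTT tumours. RTT is a mouse melanoma line with ovalbumin as its model antigen and with acquired resistance to targeted drugs. All tumours grew in Rag2-/- mice, which have no T or B cells of their own, all received OT-1 CD8+ T cells by adoptive transfer (ACT) on day 7, and all were taken on day 10, 72 h later. There were 4 libraries, 1 per group. CTRL was RTT carrying an empty vector with mCherry, IRF3/7 was RTT that expressed cDNAs of IRF3 and IRF7 from SFFV vectors and had been sorted in bulk for mCherry, COX2i was the mCherry line in mice given celecoxib daily by gavage, and COX2i + 5-AZA was the mCherry line in mice given celecoxib and injections of 5-azacytidine. For each group 3 tumours were pooled before the sort. No group had a second library, so no test between conditions was possible and each difference below is one between 2 libraries. Intervals in parentheses are exact 95% intervals that cover counting error only, and not the spread between tumours.

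Replication starts with the licensing of origins in G1 phase, when the origin recognition complex, CDC6 and CDT1 load the MCM2 to MCM7 helicase onto DNA. At the start of S phase CDC45 and the GINS complex join that helicase and turn it on, polymerase alpha with its primase lays down primers, and polymerases delta and epsilon extend them on the ring-shaped clamp PCNA, which the RFC complex loads. Ribonucleotide reductase, thymidylate synthase and thymidine kinase provide the deoxynucleotides. Transcription of many of these genes rises late in G1 under E2F factors, and tumour macrophages can divide within the tumour, which makes the genes a reading of proliferation in a myeloid infiltrate.

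Many of the members hold letters that E2F factors are known to bind in their promoters, and some of these stretches are shown as a feature that the choice of the genes and their levels did not use. The RefSeq promoter table of GRCm38.p6, with 250 bases before and 50 bases after each start, held 35 of the 43 members. TTTCCCGC, TTTCGCGC, TTTGCCGC or TTTGGCGC was present on either strand in 13 of the 35 (37.1%), namely Cdc6, Cdt1, Clspn, Dtl, Lig1, Mcm3, Mcm5, Mcm6, Mcm7, Orc1, Pola1, Pold1 and Rfc3, against 704 of all 27025 genes of that table (2.60%). CCAAT, the letters of the NF-Y box, was present on either strand in 21 (60.0%) against 41.1% of all genes. TTTGAA, one form of the CHR element of genes of late cell cycle phases, was present in 3 (8.57%; Cdc45, Fen1 and Mcm2) against 20.2%. GAAA followed by any 2 bases and GAAA again, a form of the interferon-stimulated response element, was present in 0 of the 35 against 3.99% of all genes. Stretches upstream of the start used by that table are shown for 5 members, with none of an annotated exon. Those of Cdc6 and Pola1 lie inside the annotated gene, after its outermost start. All 5 are printed 5′ to 3′ on the strand of the gene, with the E2F-type letters in capitals. They lie at chr11:98907982-98908060 (Cdc6, plus strand), chr1:191575545-191575592 (Dtl, minus strand), chr8:75109316-75109407 (Mcm5, plus strand), chr1:128359706-128359855 (Mcm6, minus strand) and chrX:93632246-93632333 (Pola1, minus strand), all GRCm38.p6.
Cdc6: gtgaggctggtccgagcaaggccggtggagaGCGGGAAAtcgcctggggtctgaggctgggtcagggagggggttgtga
Dtl: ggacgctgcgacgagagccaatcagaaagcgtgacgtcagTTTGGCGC
Mcm5: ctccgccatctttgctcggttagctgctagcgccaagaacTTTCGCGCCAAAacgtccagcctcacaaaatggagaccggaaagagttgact
Mcm6: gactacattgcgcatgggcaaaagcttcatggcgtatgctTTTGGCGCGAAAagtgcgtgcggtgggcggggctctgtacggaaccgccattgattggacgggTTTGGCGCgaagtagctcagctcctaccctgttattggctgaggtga
Pola1: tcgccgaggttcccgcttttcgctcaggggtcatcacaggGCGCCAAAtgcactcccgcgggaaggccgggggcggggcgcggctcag
In Mcm5 a pair of matches overlaps, one on each strand, and in Mcm6 2 of the 3 matches overlap in the same way. A match is a description of the letters and not a measured binding site.

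The libraries held 6329 (IRF3/7) to 10032 (COX2i + 5-AZA) cells and 26356819 (IRF3/7) to 78722763 (COX2i) UMIs. The IRF3/7 library was the shallowest, with a median of 3168 UMIs per cell against 6039.5 to 7502 in the others, and its part in the comparisons with CTRL was not tested. Of all 34447 cells, 10018 carried a droplet barcode that also occurred in another library; the 4 libraries were loaded together and told apart by probe barcodes. The class Myofibrobl had 30.6 CPM of Ptprc, which encodes CD45, against 346 CPM in TAM_cycling, and 3881 CPM of the collagen gene Col3a1, so it was low in the marker of the sort. TAM_cycling had the macrophage genes Adgre1 (481 CPM) and C1qa (7025 CPM) together with the proliferation gene Mki67 (578 CPM). Levels are given as CPM (the UMIs of a gene or of a sum of genes per 1000000 UMIs of the same cells), and since each gene is read by its own probes they were compared between cells and not between genes.

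Over all cells, the 43 genes together were highest in COX2i and lowest in IRF3/7. They held 174240 UMIs in CTRL, 35057 in IRF3/7, 303851 in COX2i and 171476 in COX2i + 5-AZA. This corresponded to 2566 (2554 to 2579), 1330.1 (1316 to 1344), 3859.8 (3846 to 3874) and 2248 (2238 to 2259) CPM. Outside TAM_cycling the levels were closer to each other, at 1476, 1292, 1946 and 1183 CPM in the same order. Within TAM_cycling they were at 6174, 7831, 6213 and 5681 CPM, with 20 cells behind the IRF3/7 value.

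Among the 17 classes of the deposited annotation, the members pooled over libraries were highest in the few cells of the class T_CD8 and in cycling macrophages, and lowest in neutrophils and inflammatory monocytes. Most Infl_Mono cells came from IRF3/7, and in CTRL that class lay above TAM_Spp1. These classes were clustered by the authors on genes that can include the members, so the order is a description. T_CD8 had 9378 CPM over its 16 cells, none of them in CTRL. TAM_cycling was at 6174, 6213 and 5681 CPM in the libraries other than IRF3/7. NK_cells, the natural killer cells, were at 4079 CPM in IRF3/7 (568 cells), 6063 CPM in COX2i (50 cells) and 4342 CPM in COX2i + 5-AZA (437 cells), and cDC1 at 4737 and 4296 CPM in COX2i and COX2i + 5-AZA. The macrophage classes TAM_C1q and TAM_Spp1 were lower, at 1086 and 912 CPM in CTRL. Infl_Mono, the inflammatory monocytes, was at 1061, 714, 991 and 644 CPM, and Neutro at 800.0 CPM in CTRL and 566 CPM in COX2i + 5-AZA. Neutrophils are a cell type that no longer divides, and the macrophage and monocyte classes outside TAM_cycling reached at most 2024 CPM with 50 or more cells.

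**Figure D1:**
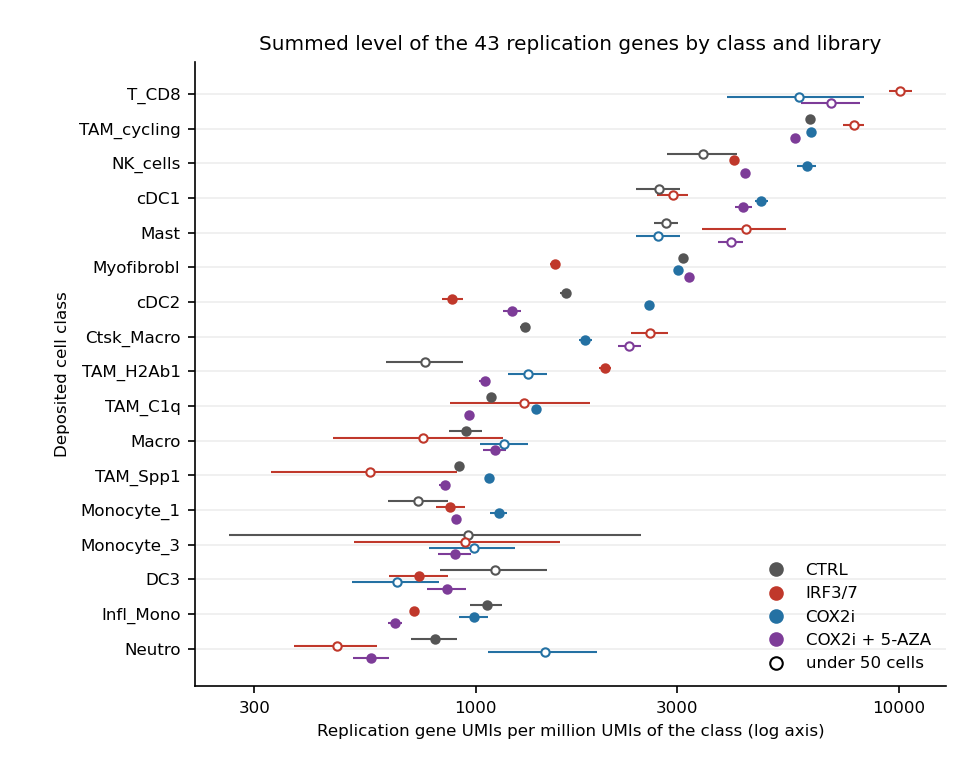
Summed level of the 43 replication genes (CPM of the class, log axis) in each deposited class (vertical axis), with 1 point per library, exact 95% counting intervals and open points for under 50 cells. T_CD8, TAM_cycling, NK_cells and cDC1 lie to the right, and TAM_cycling is at nearly the same level in CTRL, COX2i and COX2i + 5-AZA.

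The cells that carried the replication UMIs differed between libraries. TAM_cycling held 55.8%, 3.41%, 72.2% and 59.8% of the member UMIs of CTRL, IRF3/7, COX2i and COX2i + 5-AZA, from 1457, 20, 3164 and 1320 cells (16.3%, 0.316%, 34.6% and 13.2% of the cells). In IRF3/7 the UMIs came instead from Infl_Mono (29.99%), NK_cells (23.4%), Myofibrobl (19.7%) and TAM_H2Ab1, macrophages high in MHC class II genes (11.7%). Infl_Mono made up 4335 of the 6329 cells of that library, at 714 CPM, where NK_cells were at 4079 CPM. In CTRL the next classes after TAM_cycling were Myofibrobl (17.1%) and TAM_C1q (14.6%). In COX2i + 5-AZA they were Monocyte_1 (11%) and TAM_C1q (7.85%). Scaled to all UMIs of the library, TAM_cycling gave 1433, 45.4, 2786 and 1345, the other macrophages 596, 173, 419.7 and 319, and monocytes 9.84, 423, 32.7 and 288 CPM in the same order of libraries. A change in the share of a class and a change within its cells both move the sum over all cells, and the sums below are therefore given over all cells, outside TAM_cycling and within it.

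**Figure D2:**
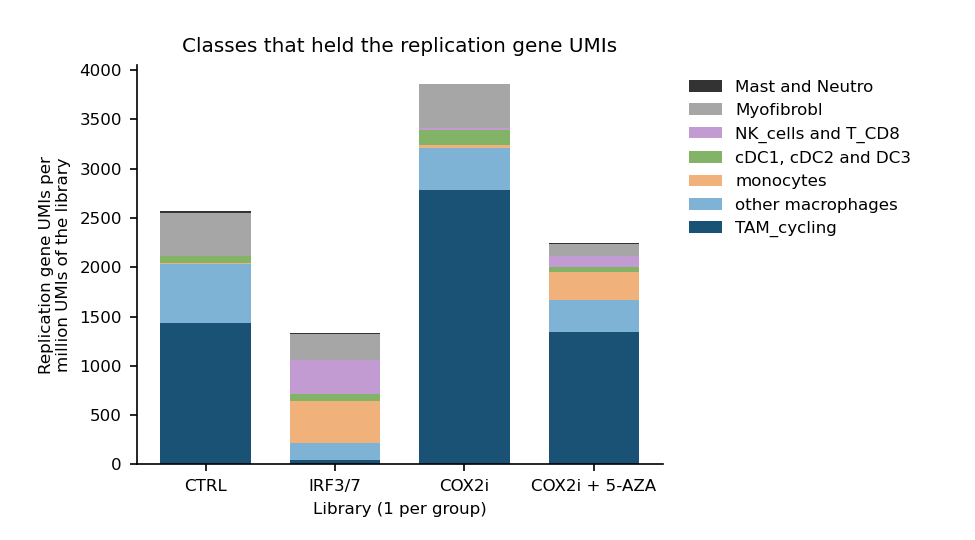
Replication gene UMIs in CPM of the library (vertical axis) for the 4 libraries, stacked by the group of classes that held them. TAM_cycling fills more than any other group of classes in CTRL, COX2i and COX2i + 5-AZA, and monocytes, NK_cells and Myofibrobl fill most of IRF3/7.

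The members are described below by the log2 ratio of CPM between 2 libraries and by how many were at least 1.5-fold higher or lower. A gene was counted where the 2 libraries held 50 or more of its UMIs, and all 43 did over all cells, outside TAM_cycling and within it. In IRF3/7 against CTRL, replication genes were lower over all cells, and outside TAM_cycling the sign of the sum differed between alternatives. The sum had a log2 ratio of -0.95 (-0.96 to -0.93) over all cells. Of the 43 members, 38 were at least 1.5-fold lower and 0 higher, where 32.1% and 15.2% of all genes were, and the median member was at -1.21 against -0.30 for all genes. Outside TAM_cycling the sum was at -0.19 (-0.21 to -0.17), a direction that turned to 0.09 with median-of-ratios size factors, to 0.17 in cells with more than 2000 genes and to 0.16 without Myofibrobl. The median over all cells was 1585 genes per cell in IRF3/7 and 2784 in CTRL. The cut at 2000 genes thus left out a larger part of IRF3/7 and kept unlike cells. With the class mix of CTRL the sum was at -0.98, over the 3 classes with 50 or more cells in both libraries. The sum was lower in IRF3/7 in each of them, at -0.89 (-0.98 to -0.80) in cDC2, -0.57 (-0.70 to -0.44) in Infl_Mono and -1.01 (-1.04 to -0.97) in Myofibrobl. These classes held 645, 93 and 554 of the 7496 CTRL cells outside TAM_cycling, and no macrophage class was among them. Over all cells outside TAM_cycling, 7 members were at least 1.5-fold lower and 0 higher (30.4% and 14.1% of all genes), or 0 lower and 2 higher with those size factors (17.4% and 20.2%), and 2 lower and 7 higher without Myofibrobl (36.2% and 14.6%). The median member equalled that of all genes at -0.30. The size factors moved all log2 ratios of this comparison by 0.28 over all cells and by 0.28 outside TAM_cycling, so a gene slightly below 0 here, such as Rrm2 at -0.03, turned sign with them. With only 20 TAM_cycling cells in IRF3/7, no comparison was made within that class.

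In COX2i against CTRL, replication genes were higher, over all cells and outside TAM_cycling, and differed little within TAM_cycling. The sum had log2 ratios of 0.59 (0.58 to 0.60), 0.40 (0.38 to 0.41) and 0.01 (-0.002 to 0.02) respectively. Over all cells 27 members were at least 1.5-fold higher and 0 lower (6.50% and 6.56% of all genes). All 43 were above 0 there, with a median of 0.62 against 0.04 for all genes. Outside TAM_cycling 12 were higher and 0 lower (8.86% and 5.27%), with a median of 0.46 against 0.06. Without Myofibrobl, 21 were higher and 0 lower (6.77% and 8.64%). Within TAM_cycling 0 members were past 1.5-fold either way, where 3.57% of all genes were higher and 5.81% lower, and the members lay between -0.20 (Dtl) and 0.21 (Cdc6). The sum within TAM_cycling turned to -0.01 with median-of-ratios size factors. With the class mix of CTRL applied to both libraries, the log2 ratio was 0.11 over all cells and 0.23 outside TAM_cycling.

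The comparison of COX2i + 5-AZA with COX2i asks what 5-azacytidine added, and replication genes were lower with it. The sum was at -0.78 (-0.79 to -0.77) over all cells, -0.72 (-0.73 to -0.70) outside TAM_cycling and -0.13 (-0.14 to -0.12) within it. Over all cells 35 members were at least 1.5-fold lower and 0 higher (21.7% and 9.83% of all genes). Outside TAM_cycling 34 were lower and 0 higher (26.7% and 9.79%), with a median of -0.91 against -0.24. Within TAM_cycling 0 members were past 1.5-fold either way (10.1% of all genes lower and 6.28% higher), and 32 of 43 were below 0, where 63.1% of all genes were. The size factors moved the log2 ratios by 0.19 over all cells and 0.24 outside TAM_cycling, and with the class mix of CTRL the log2 ratio was -0.20 over all cells and -0.29 outside TAM_cycling.

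COX2i + 5-AZA and CTRL differed less from each other over all cells. The sum was at -0.19 (-0.20 to -0.18) over all cells, -0.32 (-0.33 to -0.30) outside TAM_cycling and -0.12 (-0.13 to -0.11) within it. Over all cells 0 members were past 1.5-fold (21.3% of all genes lower and 9.45% higher), and the median member at -0.20 was near that of all genes at -0.18. Outside TAM_cycling 11 members were lower and 0 higher (24.6% and 9.92%), or 6 lower with the size factors (17.4%), and 0 lower and 1 higher without Myofibrobl (19.9% and 9.58%). The sum outside TAM_cycling was at -0.12 with the size factors, -0.04 without Myofibrobl and -0.08 with the class mix of CTRL. Within TAM_cycling 0 were past 1.5-fold (13.3% lower and 7.02% higher), and the lowest was Tk1 at -0.51. The size factors moved the log2 ratios by 0.17 over all cells and 0.20 outside TAM_cycling. The comparisons share libraries, so they are not independent of each other, and the values are set side by side only.

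**Figure D3:**
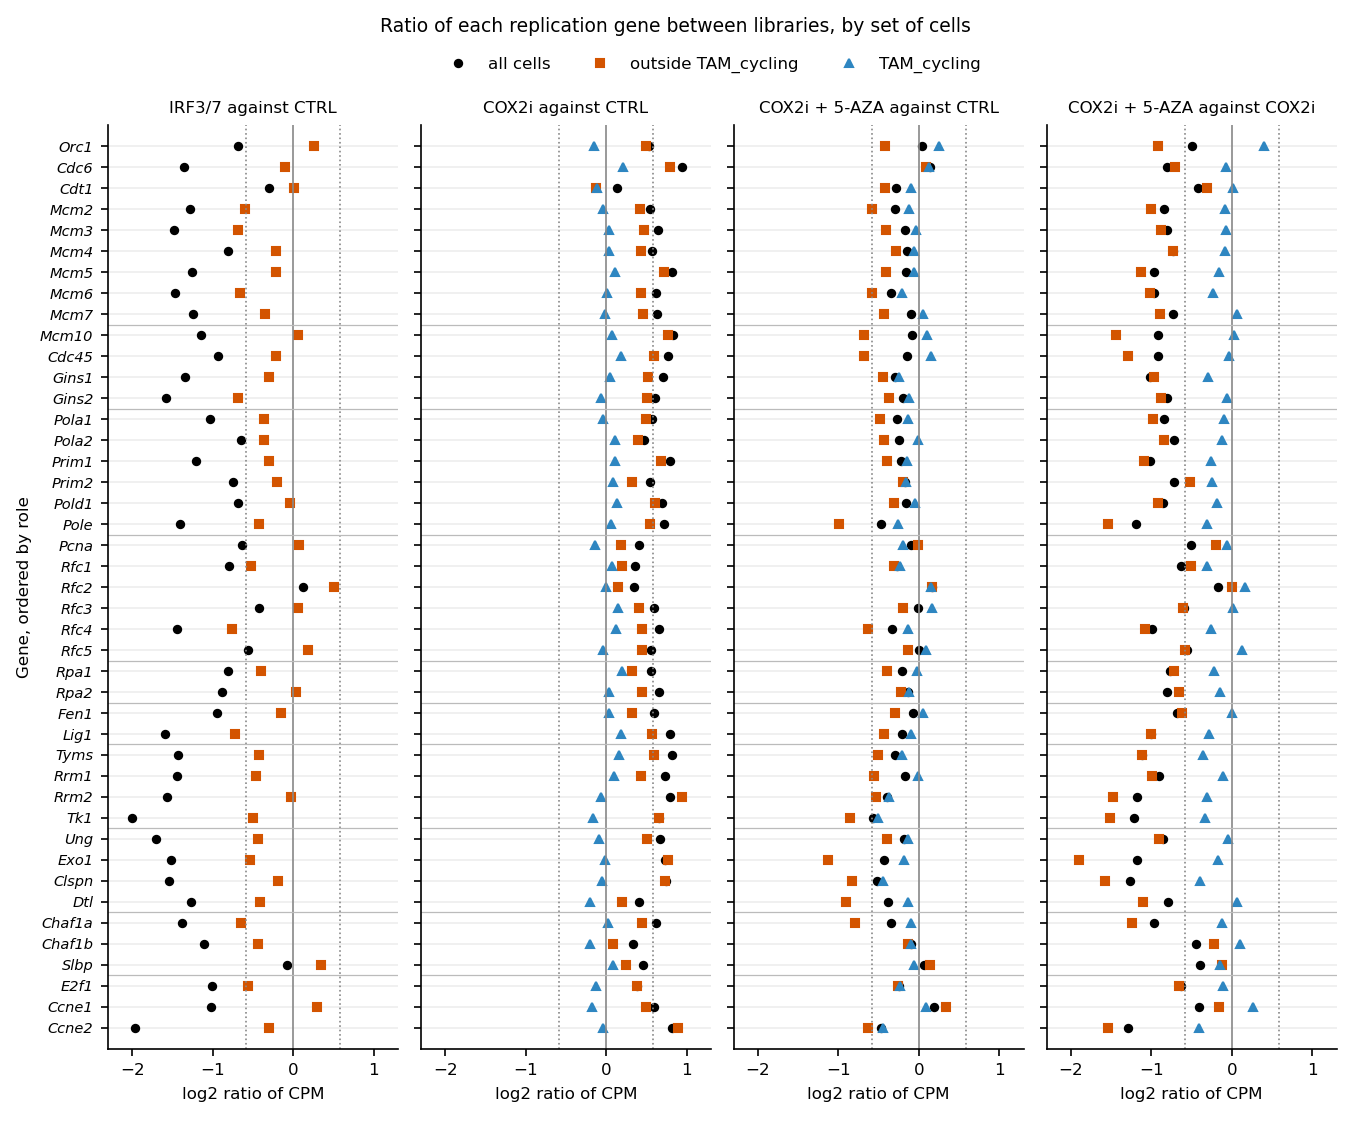
log2 ratio of CPM (horizontal axis) of each of the 43 genes, ordered by role, in the 4 comparisons, over all cells (circles), outside TAM_cycling (squares) and within TAM_cycling (triangles), with dotted lines at 1.5-fold. Within TAM_cycling all genes lie between the dotted lines; in IRF3/7 against CTRL the circles lie left of the squares for all genes, and there the sum outside TAM_cycling turned from -0.19 to 0.09 with median-of-ratios size factors.

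The members are given next by role, with 4 values each in the order CTRL, IRF3/7, COX2i and COX2i + 5-AZA. Values outside TAM_cycling include Myofibrobl, without which 17 members turned from below to above 0 in IRF3/7 against CTRL (Rrm2, Tk1, Exo1, Ccne2 and Clspn among them) and 15 in COX2i + 5-AZA against CTRL (Rrm2, Mcm10 and Ccne2 among them). Origin licensing genes and the MCM helicase together were at 791, 370.3, 1181 and 678 CPM over all cells and 463, 358, 604 and 338 CPM outside TAM_cycling. Mcm2 was at 129, 53.1, 188 and 105 CPM over all cells and at 76.5, 50.7, 103 and 51 CPM outside TAM_cycling. Mcm3 was at 117, 42.1, 183 and 104 CPM over all cells and at 65.4, 40.6, 90.7 and 49.1 CPM outside TAM_cycling. Mcm4 was at 84, 47.8, 125 and 75.6 CPM over all cells and at 53.2, 46, 72 and 43.5 CPM outside TAM_cycling. These subunits of the helicase ring had the same order of libraries over all cells, COX2i, CTRL, COX2i + 5-AZA and IRF3/7. Mcm5 was at 84.1, 35.2, 148 and 75.4 CPM over all cells and at 39.1, 33.7, 64.3 and 29.4 CPM outside TAM_cycling. Mcm6 was at 167, 60.02, 256 and 131 CPM over all cells and at 91.3, 57.7, 123 and 60.8 CPM outside TAM_cycling. Mcm7 was at 83.1, 35.1, 128 and 77.4 CPM over all cells and at 42.6, 33.5, 58.5 and 31.6 CPM outside TAM_cycling. Of the 6 subunits, Mcm3 had the lowest log2 ratio in IRF3/7 against CTRL over all cells, -1.48 (-1.57 to -1.38), and Mcm5 the highest in COX2i against CTRL, 0.82 (0.77 to 0.86). The loaders differed. Orc1, the subunit of the origin recognition complex that is made anew in G1, was at 3.73, 2.31, 5.4 and 3.82 CPM over all cells and at 1.92, 2.29, 2.69 and 1.43 CPM outside TAM_cycling. Cdc6 was at 13.3, 5.2, 25.6 and 14.6 CPM over all cells and at 5.35, 4.999, 9.31 and 5.69 CPM outside TAM_cycling. Cdt1 was at 110.4, 89.5, 121 and 90.9 CPM over all cells and at 87.8, 88.2, 80.7 and 65.3 CPM outside TAM_cycling. Over all cells Cdc6 had the largest log2 ratio of all 43 in COX2i against CTRL, 0.95 (0.83 to 1.06), and Cdt1 the smallest, 0.14 (0.09 to 0.18). Cdt1 outside TAM_cycling was at 0.01 in IRF3/7 against CTRL and at -0.12 in COX2i against CTRL.

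The genes that turn the helicase on were at 109, 44.2, 178 and 95.1 CPM together over all cells. Cdc45 was at 19.9, 10.4, 34.1 and 18 CPM over all cells and at 11.5, 9.92, 17.4 and 7.13 CPM outside TAM_cycling. Mcm10 was at 20.9, 9.45, 37.2 and 19.8 CPM over all cells and at 8.55, 8.89, 14.6 and 5.34 CPM outside TAM_cycling. Both were higher in COX2i than in any other library, over all cells and outside TAM_cycling. Gins1, a GINS subunit, was at 27.8, 10.9, 45.6 and 22.5 CPM over all cells and at 13.3, 10.8, 19.1 and 9.78 CPM outside TAM_cycling. Gins2 was at 40.03, 13.4, 61.1 and 34.8 CPM, and outside TAM_cycling at 20.4, 12.7, 29 and 15.8 CPM. As a role, these 4 genes had log2 ratios outside TAM_cycling of 0.58 for COX2i over CTRL and -1.07 for COX2i + 5-AZA over COX2i, with Mcm10 at -1.45 in the latter.

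Polymerases and primase were at 216, 116, 332 and 181 CPM over all cells. Pola1, the catalytic subunit of polymerase alpha, was at 46.9, 22.9, 69.5 and 38.9 CPM and outside TAM_cycling at 28.5, 22.1, 40.3 and 20.4 CPM. Pola2, its accessory subunit, was at 47.1, 30.2, 65.5 and 39.7 CPM and outside TAM_cycling at 37.6, 29.4, 49.7 and 27.7 CPM. The primase subunits were lower in COX2i + 5-AZA than in COX2i in both sets of cells. Prim1 was at 20.4, 8.8, 35.2 and 17.4 CPM, and outside TAM_cycling at 10.3, 8.32, 16.5 and 7.77 CPM. Prim2 was at 25.2, 15.1, 37 and 22.4 CPM, and outside TAM_cycling at 16.8, 14.6, 21 and 14.6 CPM. Pold1 and Pole, the catalytic subunits of the polymerases delta and epsilon, differed in COX2i + 5-AZA outside TAM_cycling. Pold1 was at 43.4, 27.1, 70.6 and 39 CPM, and outside TAM_cycling at 27.2, 26.4, 41.5 and 22 CPM. Pole was at 32.6, 12.3, 53.9 and 23.5 CPM, and outside TAM_cycling at 15.9, 11.8, 23.2 and 7.96 CPM. There Pole had a log2 ratio of -0.999 (-1.17 to -0.83) in COX2i + 5-AZA against CTRL, and Pold1 of -0.31 (-0.42 to -0.20).

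The clamp and its loader differed less between libraries than licensing and deoxynucleotide genes, at 467, 339, 627 and 449.9 CPM over all cells and 309.6, 334, 362 and 301 CPM outside TAM_cycling. Pcna, the sliding clamp, which also acts in DNA repair, was at 240.1, 155, 318 and 224 CPM over all cells and at 144, 152, 164 and 143 CPM outside TAM_cycling, where the 4 libraries lay within 1.5-fold of each other. Rfc2 was at 101, 110.4, 128 and 113 CPM, and outside TAM_cycling at 76.8, 109, 85.4 and 85.8 CPM. Rfc2 was the only member higher in IRF3/7 than in CTRL over all cells, 0.13 (0.06 to 0.19), and outside TAM_cycling it was at 0.51 (0.44 to 0.58). Rfc1 was at 48.4, 27.8, 61.9 and 40.01 CPM, and outside TAM_cycling at 39.6, 27.5, 45.6 and 32 CPM. Rfc3 was at 27, 20.1, 40.6 and 26.8 CPM, and outside TAM_cycling at 18.8, 19.7, 25 and 16.4 CPM. The loader subunits did not move as 1 unit. Rfc4 was at 26.9, 9.9, 42.5 and 21.4 CPM, and outside TAM_cycling at 16.2, 9.62, 22.2 and 10.5 CPM. Rfc5 was at 24.1, 16.4, 35.6 and 24.2 CPM, and outside TAM_cycling at 14, 15.9, 19.1 and 12.8 CPM. In IRF3/7 against CTRL outside TAM_cycling, Rfc4 was at -0.76 (-0.97 to -0.55), the lowest of all 43, while Rfc5 was at 0.18 (0.01 to 0.36).

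RPA coats single-stranded DNA at the fork, and FEN1 and DNA ligase 1 join the fragments of the lagging strand. Rpa1 was at 97, 55.3, 143 and 83.8 CPM, and outside TAM_cycling at 71.5, 54.3, 89 and 54.3 CPM. Rpa2 was at 35.6, 19.3, 56.4 and 32.3 CPM, and outside TAM_cycling at 18.2, 18.7, 24.7 and 15.7 CPM. Both RPA genes were highest in COX2i. Fen1 was at 99.5, 51.4, 151 and 94.2 CPM, and outside TAM_cycling at 55.5, 49.9, 69.3 and 45.1 CPM. Lig1 was at 54.8, 18.2, 95.1 and 47.4 CPM, and outside TAM_cycling at 29.4, 17.8, 43.7 and 21.8 CPM. Lig1 was lower than Fen1 in IRF3/7 against CTRL on the scale of log2 ratios over all cells, -1.59 (-1.73 to -1.46) against -0.95 (-1.04 to -0.87).

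Genes of deoxynucleotide supply were at 376, 124, 629 and 296 CPM over all cells. Their log2 ratios were the furthest from 0 of the 10 roles in 3 comparisons, at -1.59 between IRF3/7 and CTRL, 0.74 between COX2i and CTRL and -1.09 between COX2i + 5-AZA and COX2i. Rrm2, the small subunit of ribonucleotide reductase that is degraded after S phase, was at 129, 43.4, 223 and 98.3 CPM over all cells and at 41.9, 41.1, 80.4 and 28.8 CPM outside TAM_cycling. Rrm1, the large subunit, was at 122, 44.7, 201 and 108 CPM and outside TAM_cycling at 59.7, 43.5, 80.8 and 40.7 CPM. Tyms, thymidylate synthase, was at 41.8, 15.4, 73.8 and 34.1 CPM and outside TAM_cycling at 19.8, 14.8, 30.04 and 13.9 CPM. All 3 were highest in COX2i in both sets of cells. Tk1, cytosolic thymidine kinase, was at 83, 20.8, 130.5 and 56.1 CPM over all cells and at 27.5, 19.4, 43.4 and 15.2 CPM outside TAM_cycling. Its log2 ratio in IRF3/7 against CTRL was the lowest of any member over all cells, -1.997 (-2.13 to -1.87), and -0.50 (-0.65 to -0.35) outside TAM_cycling. Outside TAM_cycling Rrm2 was the member with the largest log2 ratio in COX2i against CTRL, 0.94 (0.86 to 1.02), and it differed by -0.03 between IRF3/7 and CTRL.

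The genes of repair, checkpoint and licensing control were at 67.5, 23.5, 107 and 51.7 CPM together over all cells. Clspn encodes claspin, the adaptor of the replication checkpoint, and Dtl the factor that marks CDT1 for destruction in S phase. Clspn was at 26, 8.92, 43.7 and 18.1 CPM, and outside TAM_cycling at 9.55, 8.4, 15.9 and 5.34 CPM. Dtl was at 13.2, 5.46, 17.5 and 10.1 CPM, and outside TAM_cycling at 7.13, 5.34, 8.2 and 3.81 CPM. Both were highest in COX2i. Ung, the uracil DNA glycosylase, was at 18, 5.54, 28.6 and 15.9 CPM over all cells and at 6.79, 5.04, 9.63 and 5.15 CPM outside TAM_cycling. Exo1 was at 10.3, 3.6, 17.1 and 7.59 CPM, and outside TAM_cycling at 4.87, 3.36, 8.34 and 2.23 CPM. Outside TAM_cycling the exonuclease gene Exo1 had the lowest log2 ratio of all members in both comparisons of COX2i + 5-AZA, -1.13 (-1.44 to -0.81) against CTRL and -1.90 (-2.20 to -1.61) against COX2i.

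Chromatin assembly and histone supply were at 165, 129, 231 and 161 CPM over all cells. Slbp was at 115, 109, 157 and 119.8 CPM, and outside TAM_cycling at 85.1, 108, 101 and 93.4 CPM. Slbp encodes the protein that binds the stem-loop of histone mRNA, and its values outside TAM_cycling lay within 1.5-fold of each other. Chaf1a and Chaf1b encode subunits of the histone chaperone CAF-1. Chaf1a was at 36.6, 14.1, 56 and 28.7 CPM, and outside TAM_cycling at 21.1, 13.5, 28.9 and 12.2 CPM. Chaf1b was at 13.7, 6.37, 17.4 and 12.8 CPM, and outside TAM_cycling at 8.15, 6.03, 8.66 and 7.41 CPM. In IRF3/7 against CTRL outside TAM_cycling, Chaf1a was at -0.65 (-0.82 to -0.47) and Slbp at 0.34 (0.27 to 0.41).

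Genes of G1/S control were highest in COX2i and lowest in IRF3/7 over all cells. E2f1, an activating E2F factor, was at 46.1, 23, 60.4 and 38.9 CPM and outside TAM_cycling at 33.5, 22.8, 43.9 and 27.9 CPM. Ccne1 was at 19.4, 9.56, 29.2 and 22 CPM, and outside TAM_cycling at 7.44, 9.16, 10.5 and 9.4 CPM. Ccne2 was at 23.2, 5.96, 40.9 and 16.8 CPM, and outside TAM_cycling at 6.39, 5.19, 11.9 and 4.11 CPM. The genes of cyclin E1 and cyclin E2 differed outside TAM_cycling. In COX2i + 5-AZA against CTRL Ccne1 was the highest of all 43 members, 0.34 (0.15 to 0.53), and Ccne2 was at -0.64 (-0.88 to -0.39). Ccne2 also had the largest share of its UMIs in TAM_cycling, 78.9%, 13.4%, 84% and 81.3% in the order of the libraries, against 37.2%, 1.77%, 59.4% and 39% for Rfc1.

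How strongly each gene separated cycling from other macrophages was measured as the ratio of CPM in TAM_cycling to that in TAM_C1q and TAM_Spp1 together, in CTRL, COX2i and COX2i + 5-AZA. TAM_cycling was defined by such genes, so these folds describe the members and test nothing. By the mean log2 ratio of the 3 libraries, Rrm2 separated most, at 418, 399 and 322 CPM in TAM_cycling and 9.94, 16.6 and 7.46 CPM in the other 2 classes (23.9 to 43.2-fold). Mcm10 (19.8 to 43.4-fold), Ccne2 (20.5 to 37-fold), Clspn (21.3 to 28.2-fold), Exo1 (14.5 to 47.3-fold) and Tk1 (13.7 to 24.6-fold) came next. The upper value of Exo1 rested on 7 UMIs in TAM_C1q and 3 in TAM_Spp1 of COX2i + 5-AZA. Rfc1 separated least, at 77.7, 82 and 65.9 CPM in TAM_cycling and 36.8, 40.9 and 32.3 CPM in the other 2 classes (2.004 to 2.11-fold), and E2f1 (2.18 to 3.19-fold), Rfc2 (2.52 to 2.82-fold), Cdt1 (2.49 to 2.94-fold), Slbp (2.68 to 2.83-fold) and Pola2 (2.79 to 3.7-fold) were near it. The MCM subunits ranked in the middle, between Mcm4 (3.86 to 5.38-fold) and Mcm7 (6.63 to 10.9-fold), and Pcna was at 3.8 to 4.49-fold. Within some roles the members lay far apart: Rrm1 was at 7.35 to 10.6-fold beside Rrm2, Ccne1 at 9.15 to 13-fold beside Ccne2, and Cdc6 at 12.3 to 14.4-fold beside Cdt1. Fen1 (5.73 to 7.11-fold) and Lig1 (5.19 to 7.22-fold) were closer to each other.

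**Figure D4:**
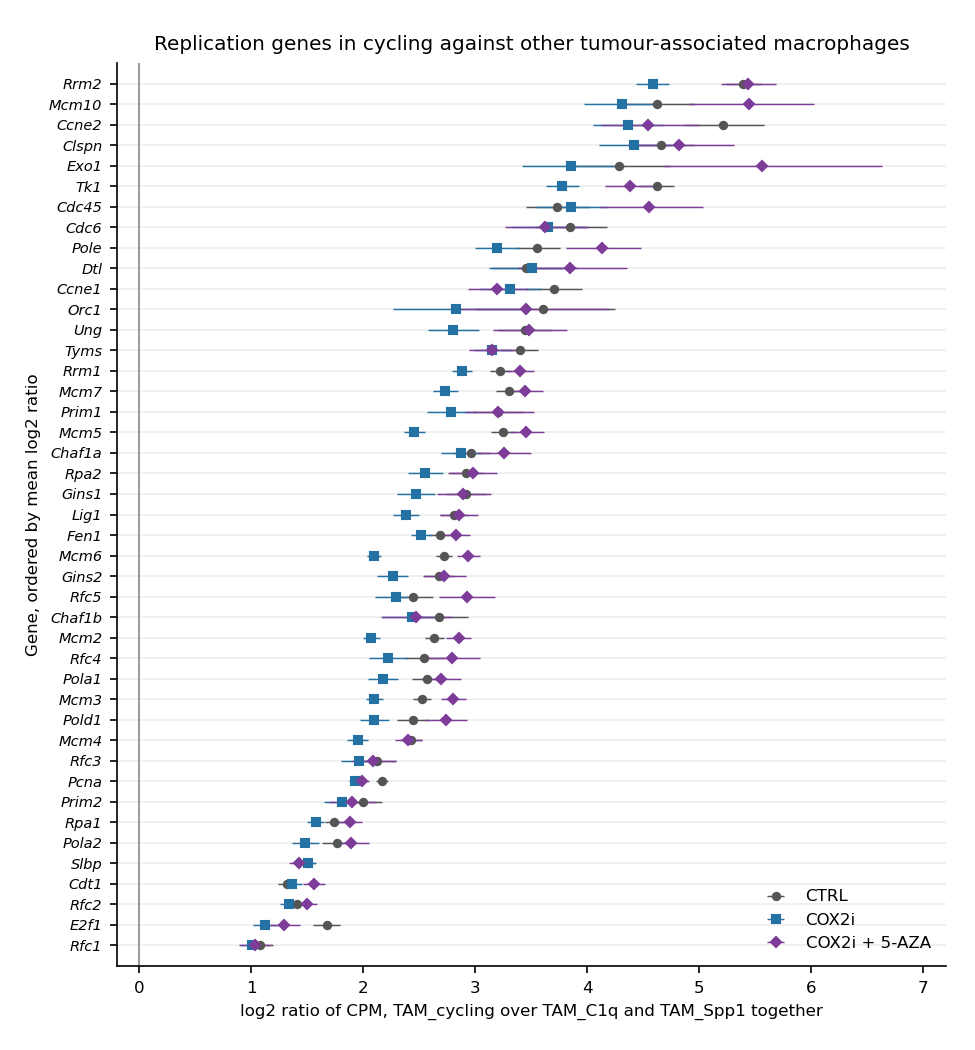
log2 ratio of CPM in TAM_cycling over TAM_C1q and TAM_Spp1 together (horizontal axis, exact 95% counting intervals) for each of the 43 genes, ordered by mean, in CTRL, COX2i and COX2i + 5-AZA. All genes lie above 0 in these 3 libraries, from Rfc1 near 1.04 to Rrm2 near 5.14.

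Within TAM_cycling the members hardly differed between these 3 libraries. Pcna was at 558, 506 and 486 CPM in CTRL, COX2i and COX2i + 5-AZA, Mcm6 at 416, 421 and 359 CPM and Rrm2 at 418, 399 and 322 CPM. The 3 values of each of these genes lay within 1.5-fold of each other. The deoxynucleotide genes were the lowest in COX2i + 5-AZA, with a summed log2 ratio of -0.27 against CTRL and -0.26 against COX2i. Tk1 at 267, 238 and 188 CPM had -0.51 (-0.57 to -0.44) against CTRL, and Rrm2 -0.37 (-0.43 to -0.32). Orc1 went the other way, at 9.71, 8.72 and 11.5 CPM, 0.40 (0.14 to 0.66) against COX2i. The 20 TAM_cycling cells of IRF3/7 had 655 CPM of Pcna, 465 CPM of Mcm6 and 445 CPM of Rrm2, and they were too few to compare.

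Outside the cycling macrophages, cDC2 (conventional dendritic cells type 2) had 50 or more cells in all 4 libraries and differed in each comparison. The summed members were at 1632 (1585 to 1679.8), 881 (831 to 933), 2574 (2520.2 to 2629) and 1218 (1159 to 1279) CPM in the 4 libraries, with 645, 390, 666 and 261 cells. COX2i was highest and IRF3/7 lowest, with 1 library each and intervals of counting error only. The log2 ratios of the sum were -0.89 (-0.98 to -0.80) in IRF3/7 against CTRL, 0.66 (0.61 to 0.71) in COX2i against CTRL, -0.42 (-0.50 to -0.34) in COX2i + 5-AZA against CTRL, and -1.08 (-1.16 to -1.002) when COX2i + 5-AZA was compared with COX2i. Rrm2 was at 38.4, 9.15, 129 and 37.4 CPM in the 4 libraries, Tk1 at 25.5, 1.53, 73.7 and 13 CPM and Mcm7 at 47, 19.1, 109 and 38.1 CPM. In COX2i against CTRL these genes had 1.75 (1.44 to 2.07), 1.53 (1.15 to 1.93) and 1.21 (0.92 to 1.51). The IRF3/7 value of Tk1 rests on 2 UMIs, and its log2 ratio to CTRL was -4.06 (-7.14 to -2.16). Rfc2, at 90.5, 114, 106 and 86.1 CPM, and Rfc1, at 46, 39.7, 45.6 and 35.8 CPM, differed less. Pcna in cDC2 was at 167, 121, 212 and 137 CPM and Slbp at 109, 93.8, 124 and 91.5 CPM.

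In cDC2 only members with 50 UMIs in the pair of libraries could be counted, which favours members high in 1 of them, so the counts are a description and the sums over all 43 carry the comparison. In IRF3/7 against CTRL 29 could be, of which 22 were at least 1.5-fold lower and 0 higher (29.3% and 10.2% of all genes). In COX2i against CTRL 27 of 41 were higher and 0 lower (6.83% and 4.83%). In COX2i + 5-AZA against CTRL 13 of 33 were lower and 0 higher (15.6% and 7.97%), while 33 of 40 were lower and 0 higher than in COX2i (15.0% and 6.90%). The 29 G2/M genes described further below had log2 ratios in cDC2 of -2.16, 1.01, -0.43 and -1.44 in that order of comparisons. cDC2 had a median of 3137 UMIs per cell in IRF3/7 against 4106 in CTRL, and the part of depth in these differences was not tested.

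Myofibrobl, the class low in the sorted marker, differed most in IRF3/7. The summed members were at 3087 (3052 to 3123), 1538 (1502 to 1575), 3017 (2986 to 3049) and 3197 (3132 to 3264) CPM, with 554, 172, 913 and 160 cells, and IRF3/7 was lowest. Mcm2 was at 192, 89.2, 178 and 213 CPM, Pcna at 216, 117, 202 and 221 CPM and Rrm2 at 159, 70.5, 181 and 199 CPM in the 4 libraries. All 43 members were below 0 in IRF3/7 against CTRL, where 72.6% of all genes were, with a median of -1.10 against -0.29. They ranged from -2.33 (Chaf1b) to -0.30 (Ccne1). Against CTRL the sum in COX2i and in COX2i + 5-AZA was at -0.03 (-0.06 to -0.01) and 0.05 (0.02 to 0.08). Because this class held 17.1% of the member UMIs of CTRL and 5.25% of those of COX2i + 5-AZA, the sums outside TAM_cycling were also computed without it, and in COX2i + 5-AZA against CTRL the log2 ratio then went from -0.32 to -0.04.

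Myofibrobl held 38.6%, 20.4%, 41.8% and 13.1% of the member UMIs outside TAM_cycling in CTRL, IRF3/7, COX2i and COX2i + 5-AZA, so values outside TAM_cycling carry much of this class. Without it the sum there was at 1111, 1241, 1551 and 1081 CPM, with COX2i still highest and CTRL below IRF3/7. In IRF3/7 against CTRL, 17 members went from below to above 0 and 0 the other way, and Rrm2 was then the highest at 1.20 (1.05 to 1.35), Tk1 was at 0.20, Exo1 at 0.64 and Rfc4 at -0.30, while E2f1 was the lowest at -0.64. In COX2i + 5-AZA against CTRL 15 went from below to above 0, among them Rrm2 (0.40), Mcm10 (0.21) and Ccne2 (0.04), and Exo1 and Pole were at -0.45 and -0.41. The other comparisons kept more of their members on the same side. In COX2i against CTRL 0 members turned, with Rrm2 at 1.51 (1.38 to 1.65), and in COX2i + 5-AZA against COX2i 1 turned and 26 were at least 1.5-fold lower (15.6% of all genes), with Exo1 at -1.49 (-1.91 to -1.08). Rrm2 was at 15.2, 35, 43.4 and 20.2 CPM and Mcm6 at 68.6, 55.4, 109 and 53.5 CPM in the 4 libraries without the class.

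Macrophages outside TAM_cycling had 1058, 2019, 1328 and 984 CPM of the members, and IRF3/7 was highest among them. These were different classes, since 385 of the 419 such cells of IRF3/7 were TAM_H2Ab1 and CTRL held 19 TAM_H2Ab1 cells. TAM_H2Ab1 was at 2024 (1962 to 2087) CPM in IRF3/7 and 1051 (1021 to 1082) CPM in COX2i + 5-AZA. In that class Mcm2 was at 109 CPM in IRF3/7 and 42.1 CPM in COX2i + 5-AZA, and Rrm2 at 58.3 and 9.44 CPM. TAM_C1q was at 1086 (1073 to 1099), 1389 (1371 to 1407) and 962 (946 to 979) CPM in CTRL, COX2i and COX2i + 5-AZA, with Mcm5 at 26.1, 52.5 and 21.7 CPM and Mcm6 at 69.9, 112 and 48.2 CPM. The log2 ratio of the sum in COX2i against CTRL was 0.36 (0.33 to 0.38) in TAM_C1q. TAM_Spp1 had the same order, 912, 1076 and 845 CPM.

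Natural killer cells were another class rich in replication UMIs, and they were nearly absent from CTRL (11 cells). Mcm6 was at 310.5, 392 and 325 CPM in IRF3/7, COX2i and COX2i + 5-AZA, Pcna at 316, 557 and 359 CPM and Rrm2 at 213, 404 and 246 CPM. COX2i was highest in each, on 50 cells, and the log2 ratio of the sum in COX2i + 5-AZA against COX2i was -0.48 (-0.56 to -0.40). cDC1 were at -0.14 (-0.22 to -0.06) in the same comparison.

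Infl_Mono carried the largest part of the member UMIs of IRF3/7 through its 4335 cells, and its members did not move together. The sum was at -0.57 (-0.70 to -0.44) in IRF3/7 against CTRL, where CTRL held 93 cells of the class. Pcna was at 114, 131, 121 and 109 CPM in the 4 libraries, Rfc2 at 90.9, 104, 85.1 and 82 CPM and Slbp at 64, 93.4, 73.7 and 78.2 CPM. These 3 clamp, loader and histone genes had log2 ratios in IRF3/7 against CTRL of 0.20 (-0.18 to 0.62), 0.19 (-0.24 to 0.66) and 0.55 (0.03 to 1.11), of which the interval of Slbp lay above 0 and the other two included it. Mcm2 was at 49.6, 6.25, 36 and 12.2 CPM, Rrm2 at 10.3, 3.94, 6.55 and 5.33 CPM and Tk1 at 16.5, 0.815, 8.19 and 1.78 CPM. These genes rested on few UMIs, 24 and 92 for Mcm2, 5 and 58 for Rrm2 and 8 and 12 for Tk1 in CTRL and IRF3/7. Their log2 ratios were -2.99 (-3.65 to -2.28), -1.39 (-2.70 to 0.29) and -4.34 (-5.75 to -2.85).

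To compare cells of unequal depth, each cell with 2000 or more UMIs was thinned to 2000, and cells with 5 or more member UMIs were counted. Outside TAM_cycling they made up 11.7% (10.9 to 12.4), 8.91% (8.14 to 9.73), 19.6% (18.6 to 20.6) and 8.88% (8.26 to 9.52) of the cells in CTRL, IRF3/7, COX2i and COX2i + 5-AZA, and 53.2%, 22%, 62.4% and 46.3% before thinning. COX2i was highest, and IRF3/7 and COX2i + 5-AZA lay close to each other. Of the cells outside TAM_cycling with 5 or more member UMIs after thinning, Myofibrobl made up 28.0%, 7.47%, 30.5% and 8.86% in the same order. The shares without that class were not computed. In TAM_cycling the share was 83.6%, 85.7% and 80.8% in CTRL, COX2i and COX2i + 5-AZA. In Neutro, which should lack replication, it was 6.0% (1.25 to 16.5) in CTRL and 0.662% (0.0168 to 3.63) in COX2i + 5-AZA, with medians of 3900.0 and 2626 UMIs per cell. In IRF3/7 it was 0 of 39 neutrophils, with an upper limit of 9.03%. A share within the interval of the neutrophils of its own library cannot be told apart from theirs, and is not thereby shown to be background. This covers Infl_Mono at 2.48% (1.99 to 3.06) in IRF3/7 and TAM_Spp1 at 5.42% (4.52 to 6.44) in CTRL. The limits of CTRL and IRF3/7 rest on 50 and 39 neutrophils. The share over all cells outside TAM_cycling pools such classes with others that lay above the limit. COX2i held 5 neutrophils of this depth, too few for a limit. Leaving out cells under 2000 UMIs removed 270, 1203, 263 and 702 cells outside TAM_cycling, and 769, 380, 796 and 689 of the cells kept had 4 or 5 member UMIs.

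Several classes lay above the neutrophils. By class, the share after thinning was 44.7% (39.9 to 49.7) in NK_cells of IRF3/7 and 53.6% (47.7 to 59.4) in those of COX2i + 5-AZA. In cDC2 it was 14.8% (12.1 to 17.8), 4.66% (2.69 to 7.46), 25.6% (22.3 to 29.2) and 10.2% (6.71 to 14.7) in the 4 libraries, with those of CTRL and IRF3/7 within the limit of the neutrophils, as was TAM_C1q of CTRL. In Myofibrobl it was 43.6%, 20.0%, 39.4% and 39.6%, and in TAM_H2Ab1 28.6% (24 to 33.5) in IRF3/7 and 8.41% (5.93 to 11.5) in COX2i + 5-AZA. TAM_C1q had 10.3% (9.25 to 11.4), 17.7% (16 to 19.4) and 7.91% (6.52 to 9.49) in CTRL, COX2i and COX2i + 5-AZA, and few of these cells also reached 5 UMIs of the G2/M list after thinning: 0.225%, 0.404% and 0.149% of TAM_C1q cells had 5 or more UMIs of both lists. In TAM_cycling 47.3%, 53.8% and 45.5% had both, and in cDC2 of COX2i 16.2%. Since the classes were clustered on genes that can include both lists, this contrast between TAM_C1q and TAM_cycling describes the classes and is no test.

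**Figure D5:**
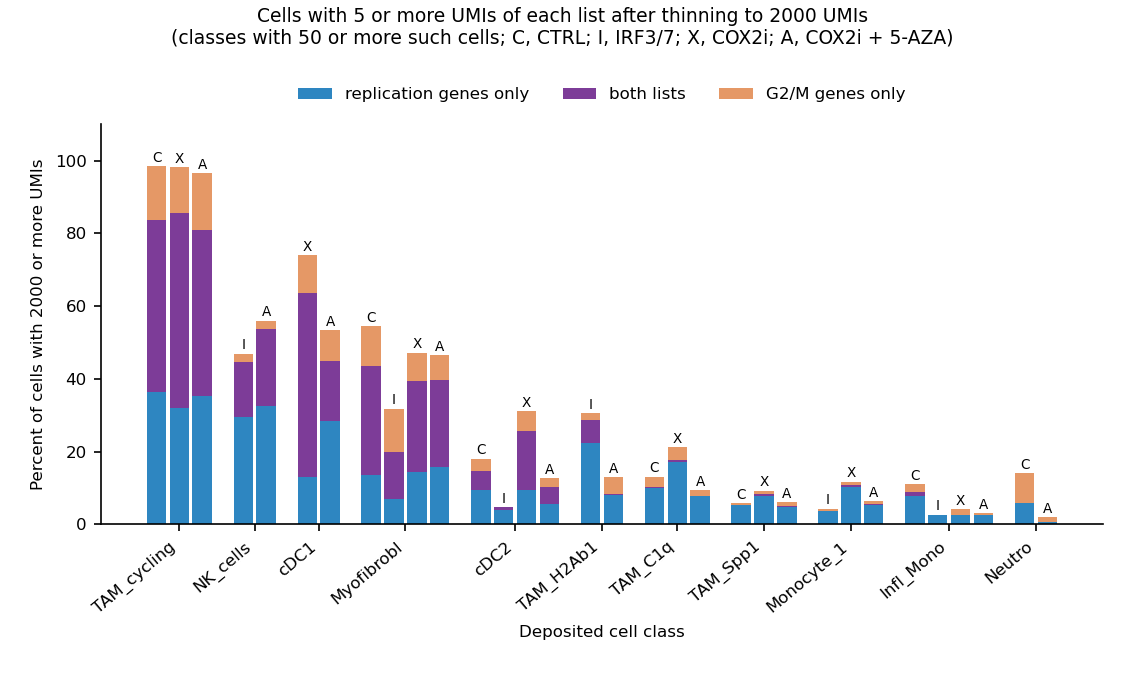
Percent of cells with 2000 or more UMIs (vertical axis) that had 5 or more UMIs of the replication genes only, of both lists or of the G2/M genes only after thinning to 2000 UMIs, by class and library, for classes with 50 or more such cells. TAM_cycling has bars of nearly equal height in CTRL, COX2i and COX2i + 5-AZA, and the bars of TAM_C1q, TAM_Spp1, Monocyte_1 and Infl_Mono hold almost no cells with both lists.

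The balance of replication to G2/M genes within TAM_cycling, which does not depend on the scaling to total UMIs, differed little. There were 1.12 (1.11 to 1.13), 1.07 (1.06 to 1.07) and 1.16 (1.15 to 1.18) replication UMIs for each UMI of the 29 G2/M genes in CTRL, COX2i and COX2i + 5-AZA. COX2i was lowest and COX2i + 5-AZA highest, with intervals of counting error only. The 20 cells of IRF3/7 gave 2.18 (1.97 to 2.42).

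The other genes of the cell cycle were taken from lists chosen for their function. Of 30 genes of G2 and mitosis, 29 were in the table. Over all cells 28 of them were at least 1.5-fold lower in IRF3/7 than in CTRL (32.1% of all genes), 22 were higher in COX2i than in CTRL (6.50%), and 28 were lower in COX2i + 5-AZA than in COX2i (21.7%). Outside TAM_cycling, 10 were lower and 1 higher in IRF3/7 than in CTRL (30.4% and 14.1% of all genes). Without Myofibrobl, 2 were lower and 2 higher there (36.2% and 14.6%), and the log2 ratio of their sum was 0.07. Between COX2i + 5-AZA and CTRL outside TAM_cycling, G2/M genes were lower, with 26 of 29 lower (24.6% of all genes) and a median of -0.97, where 11 of the 43 replication genes were lower and their median was -0.43. Myofibrobl held 60.2% of the G2/M UMIs outside TAM_cycling in CTRL and 22.5% in COX2i + 5-AZA. Without that class 4 of 29 were lower (19.9% of all genes), and the log2 ratio of their sum went from -0.96 (-0.98 to -0.94) to -0.22 (-0.25 to -0.19). In COX2i + 5-AZA against COX2i 25 of 29 were then lower (15.6%). Top2a, which encodes topoisomerase II alpha, was at 96.9, 81.1, 149 and 50.4 CPM outside TAM_cycling with Myofibrobl kept, Mki67 at 76, 49.5, 109 and 42.6 CPM and the mitotic kinase gene Cdk1 at 57.8, 40.6, 76.9 and 27 CPM. COX2i + 5-AZA was lowest in Top2a, Mki67 and Cdk1. The gene of anillin, Anln, which acts in cytokinesis, had the lowest log2 ratio of the list, -2.17 in COX2i + 5-AZA against COX2i, at 60.7, 32.9, 66.5 and 14.8 CPM. Past 2-fold in that comparison were also Ccna2, Ccnb2, Aurka, Aurkb, Bub1, Plk1, Cdc20, Cenpe, Cenpf, Tpx2, Kif11, Kif23, Birc5, Ube2c, Hmmr, Nusap1, Tacc3, Ncapd2, Ncaph, Smc2, Prc1 and Ect2, all lower in COX2i + 5-AZA. Cks2, a CDK-binding subunit, was the 1 gene of the list at least 1.5-fold higher in IRF3/7 than in CTRL outside TAM_cycling, at 34.1, 63.1, 36.9 and 29.6 CPM.

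Another 27 genes of the replisome and of origins, all in the table, are given beside the members. Over all cells 15 were lower and 1 higher in IRF3/7 against CTRL (32.1% and 15.2% of all genes), with a median of -0.61 against -0.30. In COX2i 5 were higher than in CTRL (6.50% of all genes), and 14 were lower in COX2i + 5-AZA than in COX2i (21.7%). Outside TAM_cycling, 2 were lower and 2 higher in IRF3/7 than in CTRL (30.4% and 14.1% of all genes). Without Myofibrobl, 1 was lower and 4 were higher there (36.2% and 14.6%). Outside TAM_cycling Mcmbp, which encodes an MCM-binding protein, was at 121, 162, 129.7 and 149 CPM, the polymerase delta subunit gene Pold4 at 125, 118, 119.7 and 132 CPM and Gmnn, which encodes the CDT1 inhibitor geminin, at 41.8, 32.2, 52.9 and 42 CPM. These 3 differed by less than 1.5-fold between CTRL and each other library. Timeless, of the fork protection complex, was higher in IRF3/7 at 7.19, 19.96, 10.5 and 6.44 CPM, and Orc2 lower at 28.6, 12.6, 30.3 and 19.4 CPM. Tipin at 49.3, 35.4, 62.3 and 30.3 CPM, Cdc7 at 9.84, 8.78, 13.8 and 6.58 CPM and Ticrr at 2.65, 2.37, 4.54 and 1.65 CPM were past 2-fold lower in COX2i + 5-AZA than in COX2i, and at -0.57, -0.77 and -1.20 on the log2 scale without Myofibrobl. Of the 27, 15 were at least 1.5-fold lower in that comparison (26.7% of all genes), and 7 without Myofibrobl (15.6%). Fanca, a gene of fork repair, was at 14, 9.08, 19 and 7.1 CPM outside TAM_cycling, highest in COX2i and lowest in COX2i + 5-AZA. Of other repair genes, Brca1, Brca2, Fancd2, Fanci, Xrcc2 and Rad54l were past 2-fold lower in COX2i + 5-AZA than in COX2i there, and Brca1, Brca2 and Xrcc2 were less than 2-fold lower without Myofibrobl.

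Of the 17 other genes of nucleotide metabolism, 2 were at least 1.5-fold higher and 7 lower in IRF3/7 than in CTRL outside TAM_cycling, where 14.1% and 30.4% of all genes were. Samhd1, the interferon-regulated enzyme that breaks down deoxynucleotides, was at 285, 1686, 477 and 1269 CPM in CTRL, IRF3/7, COX2i and COX2i + 5-AZA, highest in IRF3/7. Dck, the deoxycytidine kinase of the salvage pathway, was at 51.1, 261, 77.8 and 109.5 CPM. Their log2 ratios in IRF3/7 against CTRL were 2.56 and 2.35. Some synthesis genes were lower: Shmt2, of mitochondrial folate metabolism, was at 137, 55.6, 174 and 62.9 CPM, Atic, of purine synthesis, at 93.7, 42, 119 and 84.9 CPM, and Umps, of pyrimidine synthesis, at 64.6, 30.8, 58.2 and 43.6 CPM. Impdh2, of guanine nucleotide synthesis, was at 126, 96.9, 177 and 104 CPM, within 1.5-fold of CTRL in each library. Dctd at 10.4, 4.69, 11.7 and 4.6 CPM, Dut at 52.9, 39.96, 70.7 and 30.1 CPM, Cad at 39.2, 26.6, 56.8 and 23.5 CPM and Mthfd2 at 118, 76.9, 161 and 76.1 CPM were past 2-fold in COX2i + 5-AZA against COX2i, and at -0.58, -0.56, -0.74 and -0.96 on the log2 scale without Myofibrobl.

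Among 20 genes of E2F, RB and cyclin D control, 4 were higher and 7 lower in IRF3/7 against CTRL outside TAM_cycling, shares not far from those of all genes (14.1% and 30.4%). The cyclin D genes differed: Ccnd1 was at 367, 358, 451 and 243 CPM, Ccnd2 at 133, 281, 173 and 208 CPM and Ccnd3 at 91.4, 192, 139 and 169 CPM, with the last 2 highest in IRF3/7. E2f4, of a repressor E2F, was at 136, 145, 149 and 146 CPM and nearly level. E2f7 at 3.57, 2.86, 6.15 and 2.27 CPM, E2f8 at 39.2, 23.8, 43.4 and 14.5 CPM and Tfdp2 at 11.5, 5.23, 13.1 and 4.16 CPM were past 2-fold lower in COX2i + 5-AZA than in COX2i, and at -1.32, -0.95 and -1.25 on the log2 scale without Myofibrobl. Of the 20, 8 were at least 1.5-fold lower in that comparison (26.7% of all genes), and 4 without Myofibrobl (15.6%). Of 9 CDK inhibitors and antiproliferative genes, 8 had 50 UMIs in IRF3/7 against CTRL, and 5 of these were higher and 0 lower (14.1% and 30.4% of all genes). Over all cells 3 of 9 were higher and 2 lower (15.2% and 32.1%). Cdkn2b, the gene without 50 UMIs, was lower at -3.22 (-6.32 to -1.26). Cdkn1a, which encodes p21, was at 330.0, 658, 415 and 667 CPM, Btg2 at 256, 677, 331 and 319.9 CPM and Btg1 at 435, 499.9, 432 and 588 CPM. Cdkn1a was highest in COX2i + 5-AZA and IRF3/7, and Btg2 in IRF3/7. Cdkn2d at 47.2, 101, 75.8 and 39.4 CPM was highest in IRF3/7, and Cdkn2c at 43.8, 57.7, 61.6 and 18.8 CPM lowest in COX2i + 5-AZA. Cdkn2a at 0.633, 0.878, 1.64 and 3.11 CPM and Cdkn2b at 0.71, 0.0763, 2.83 and 0.773 CPM rested on 308 and 207 UMIs over the 4 libraries.

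Of 9 p53 targets, 1 was higher and 2 lower in IRF3/7 against CTRL outside TAM_cycling (14.1% and 30.4% of all genes), with Bax at 331, 307, 383 and 460.4 CPM, Ccng1 at 167, 111, 211 and 232 CPM and Mdm2 at 118, 258, 120.2 and 189 CPM. Eda2r at 12, 9.39, 14.4 and 3.73 CPM and Phlda3 at 29.2, 33.6, 43.1 and 19.3 CPM were past 2-fold lower in COX2i + 5-AZA than in COX2i, and without Myofibrobl their log2 ratios were -0.97 and 0.40. Without that class 2 p53 targets were higher and 4 lower in IRF3/7 than in CTRL (14.6% and 36.2% of all genes). DNA methylation after replication is carried out by DNMT1, a target of 5-azacytidine, with UHRF1. Dnmt1 was at 118, 93.6, 145 and 85.7 CPM and Uhrf1 at 36.5, 28.4, 61.7 and 23.8 CPM outside TAM_cycling, both highest in COX2i and lowest in COX2i + 5-AZA. Within TAM_cycling Dnmt1 and Uhrf1 had a median log2 ratio of -0.23 in COX2i + 5-AZA against COX2i.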

How the data were processed

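The data were deposited tables of UMI counts for 34447 cells and 12584 genes, with a cell type and a library for each cell. The authors sorted live CD45+ cells from 3 pooled tumours per group, fixed them for 22 h and prepared them with the probe-based Chromium Fixed RNA assay. They counted UMIs with Cell Ranger 7.1.0 on mm10 (tool and build from the submitters' processing notes), removed cells by detected genes, mitochondrial and ribosomal content, kept genes found in each experiment and integrated the experiments with Harmony. The difference of the G2/M and S scores was regressed out before clustering, which can affect which cells fell into TAM_cycling. Probe counts give no isoforms. A file of cell annotation was used for class and library only.

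Here the counts as deposited were summed by class and library and divided by all UMIs of the same cells. No cell was removed and no doublet caller was run. Groups were compared over libraries, of which each group had 1, so no test was made. Intervals are exact Poisson for levels, exact conditional for ratios and Clopper-Pearson for shares, at 95%, and a count of 0 was given a floor of 3 counts. The interval code was tested on simulated data. Python 3.11.15, numpy 2.4.6, scipy 1.17.1, pandas 2.3.3 and matplotlib 3.10.9 were used. All members were named, and from each other list the 3 genes with most UMIs and those past 2-fold outside TAM_cycling, except for a result of the repair list that is not reported here. The members and lists were chosen with earlier results of these data known. Alternatives were median-of-ratios size factors, cells with more than 2000 genes, sums without the 5 most abundant members (Pcna, Mcm6, Rrm2, Rrm1 and Mcm2), the class mix of CTRL, other folds, UMI minimums and thinning depths.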

Additional observations from a re-analysis of the deposited data

Results flagged for a closer look

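The summed members had log2 ratios of opposite sign in different classes under the same comparison, with those of Myofibrobl near 0, and in each case the difference between classes was not tested, since each group held 1 library. In COX2i against CTRL the log2 ratio of the summed members was 0.6578 in cDC2 and -0.0331 in Myofibrobl. In COX2i + 5-AZA against CTRL it was 0.2264 in Macro, a small macrophage class, and -0.72 in Infl_Mono. In COX2i + 5-AZA against COX2i it was 0.0836 in Myofibrobl and -1.0794 in cDC2.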

How the results depend on the processing

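The sums over all cells kept their sign under each alternative, with COX2i + 5-AZA against CTRL near 0 under the size factors. In the order IRF3/7 against CTRL, COX2i against CTRL, COX2i + 5-AZA against CTRL and COX2i + 5-AZA against COX2i, their log2 ratios were -0.67, 0.58, -0.0178 and -0.59 with median-of-ratios size factors, -0.58, 0.56, -0.18 and -0.74 in cells with more than 2000 genes and -0.98, 0.11, -0.10 and -0.20 with the class mix of CTRL (over 3, 7, 8 and 6 classes). The first of these held no TAM_cycling cells and is the same value as outside TAM_cycling. Without the 5 most abundant members they were -0.87, -0.17 and -0.76 in the comparisons other than COX2i against CTRL. Outside TAM_cycling IRF3/7 against CTRL turned from -0.19 to 0.0895 with the size factors, to 0.17 in cells with more than 2000 genes and to 0.16 without Myofibrobl, and the cause was not tested. It was -0.17 without the 5 members and -0.98 with the class mix of CTRL, over 3 classes, none of them macrophages. In the other 3 comparisons outside TAM_cycling, the size factors gave 0.36, -0.12 and -0.48, the class mix 0.23, -0.0816 and -0.29, and leaving out Myofibrobl, an alternative chosen after seeing the data, 0.48, -0.03998 and -0.52. Cells with more than 2000 genes gave -0.34 in COX2i + 5-AZA against CTRL, and leaving out the 5 members -0.70 in COX2i + 5-AZA against COX2i. Within TAM_cycling the size factors gave -0.00985, -0.082 and -0.0722 in COX2i against CTRL and in COX2i + 5-AZA against CTRL and COX2i, and leaving out the 5 members gave 0.0307, -0.0863 and -0.12.

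At a fold of 2, over all cells 0 members were higher in COX2i than in CTRL and 10 lower in COX2i + 5-AZA than in COX2i (2.08% and 11.7% of all genes). Outside TAM_cycling 0 were lower in IRF3/7, 0 higher in COX2i, 1 lower in COX2i + 5-AZA than in CTRL and 17 lower than in COX2i (13.5%, 3.53%, 12.6% and 15.1% of all genes). With the size factors 2 were higher and 0 lower in IRF3/7 than in CTRL outside TAM_cycling, and 6 lower in COX2i + 5-AZA than in CTRL. Without Myofibrobl 7 were higher and 2 lower in IRF3/7, 21 higher in COX2i, and 0 lower and 1 higher in COX2i + 5-AZA than in CTRL. The share of cells with member UMIs outside TAM_cycling depends on depth and threshold by construction. In CTRL, IRF3/7, COX2i and COX2i + 5-AZA it was 21.9, 18, 34.8 and 16.9% at 3000 UMIs, 31.7, 25.4, 42.8 and 26% with 3 member UMIs and 4.44, 4.31, 9.18 and 3.62% with 8, and 10.8% in CTRL without the 2% of cells with the most UMIs. COX2i was highest in each. The ratio of replication to G2/M UMIs in TAM_cycling without the 3 most abundant G2/M genes (Top2a, Mki67 and Cdk1) was 1.56, 1.51 and 1.61 in CTRL, COX2i and COX2i + 5-AZA.

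No paired analysis was possible because each group held 1 library. For the same reason no library was left out, and differences between tumours, mice or sorts cannot be told apart from the treatments. The depth of IRF3/7 limited the genes of low counts there.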
